A study of Mus musculus with 2 samples.

Results

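The genes described here encode the proteins of the cytosolic ribosome, in total RNA sequencing of whole heart from 2 female mice. Members were chosen by symbol: Rpl or Rps followed by a digit, or Rplp0, Rplp1, Rplp2 or Rpsa, without the symbols that carry -ps (300 genes) and without the Rps6k kinases. The rule found 93 of 55536 annotated genes. Of these, 77 are canonical, 46 of the large and 31 of the small subunit. The other 16 symbols are paralogs, retrocopies or near names, among them the muscle paralog Rpl3l. By annotated type 86 of all members are protein-coding, and the remaining members (Rps3a2, Rps3a3, Rps4l, Rps12l1, Rpl6l, Rpl32l and Rpl37rt) are processed pseudogenes. Rps19bp1 met the rule but names a nucleolar binding partner of Rps19, not a ribosomal protein. Chromosome 7 holds 15 members and X holds 4.

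Both animals were B6CASTF1/J females, an F1 hybrid of inbred strains, aged 2 months, and neither was labelled with a treatment or an engineered allele. They are the 2 biological replicates of 1 group, with 1 ribosomal-RNA-reduced library each from 300 ng of RNA, so there was no contrast of conditions, and every p-value below compares 2 libraries. The labels name heart tissue and do not say which parts of the heart were taken. In such tissue fewer cells of a type and less RNA per cell cannot be told apart. The labels name only mm10, a reference from 1 parental strain, and reads of the other strain were not analysed apart.

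A ribosome joins a small subunit, which reads the messenger RNA, to a large subunit, which forms the peptide bond and holds the exit tunnel. Each canonical protein is needed once per ribosome, except the acidic stalk proteins Rplp1 and Rplp2, which sit on Rplp0 in several copies. The messengers of these proteins start with a run of pyrimidines, through which growth signals control their translation together. In mammals each protein is mostly made from 1 intron-containing gene, while the genome holds many intronless pseudogenes copied from the same messengers. Rpl3l replaces Rpl3 in part of the ribosomes of heart and skeletal muscle.

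Gene reads numbered 41862417 in animal 1 and 41790009 in animal 2. Cardiac markers were high, with Myh6 at 7602 and 8371 TPM (a level scaled for transcript length and library size) and Myl2 at 7034 and 8267 TPM. The 6 erythroid markers, mostly haemoglobins, summed to 43218 and 51837 TPM. TPM stood higher in animal 2 as a whole, by a median log2 of 0.22 over all genes with at least 20 reads and by 0.26 over the canonical members, so ratios between animals below use reads scaled across libraries. The same reads were deposited in 2 estimates. The first comes from transcriptome alignments and supplies the gene table; the second is a separate transcript quantification in which this gene family came out differently.

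The sequences of members and of other genes set how many bases tell their reads apart. The first 60 coding bases of Rpl3 (chr15:80077791-80091868, minus strand, mm10) are set against those of its paralog Rpl3l (chr17:24727820-24736143, plus strand) and, in a second pair, against the pseudogene Rpl3-ps1 (chrX:13202571-13203780, plus strand). Capitals mark the bases that differ within a pair.
Rpl3: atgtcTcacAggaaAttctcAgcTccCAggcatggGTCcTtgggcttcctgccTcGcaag
Rpl3l: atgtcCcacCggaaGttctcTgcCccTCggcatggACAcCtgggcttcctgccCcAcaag
Rpl3: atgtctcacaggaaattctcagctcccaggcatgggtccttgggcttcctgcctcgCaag
Rpl3-ps1: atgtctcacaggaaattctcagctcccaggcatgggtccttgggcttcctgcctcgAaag

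The coding sequences of Rpl3 and Rpl3l were 74.8% identical over 1202 compared bases, and their longest identical run was 22 bases. Rpl3 and Rpl3-ps1 differed at 2 of 1209 bases. Rpl27 (chr11:101442298-101445529, plus strand) and the pseudogene Gm11518 (chr11:94037218-94037628, minus strand) were identical over all 408 coding bases of Rpl27, and Rps23 (chr13:90922958-90924950, plus strand) and Rps23-ps1 (chr3:37714740-37715164, plus strand) over 425 bases. The opening bases of these last pairs contain no capitals, since none differ.
Rpl27: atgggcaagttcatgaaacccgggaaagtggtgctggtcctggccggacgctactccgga
Gm11518: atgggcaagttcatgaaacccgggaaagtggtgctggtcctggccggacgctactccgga
Rps23: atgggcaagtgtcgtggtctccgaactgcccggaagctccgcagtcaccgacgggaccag
Rps23-ps1: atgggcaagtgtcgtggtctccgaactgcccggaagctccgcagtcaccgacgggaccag

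The ribosomal protein messengers were abundant. All 93 members together held 1.62% ± 0.200 (SD, n = 2) of all TPM in the first quantification and 2.41% ± 0.0953 in the second. Set against the TPM of nuclear protein-coding genes, their sum came to 3.87% ± 0.0359 in the first and 4.26% ± 0.0359 in the second. That total leaves out the members annotated as pseudogenes, which the sum includes. By reads the share of all members was smaller, 0.730% ± 0.0361, a measure that is not scaled for length. The median canonical member stood at 201 TPM, above 97.5% of the 11010 nuclear protein-coding genes with at least 1 TPM in both animals, whose median was 8.84 TPM. Large-subunit members summed to 8492 ± 1087 TPM and small-subunit members to 6918 ± 821 TPM, with medians of 183 ± 26.9 and 209 ± 26.2 TPM. In the first quantification the small subunit's median was the higher one in both animals (190 against 164 TPM and 227 against 202 TPM). The gap was about the SD between animals, which includes the shift in TPM scale. In the second quantification the small subunit's median was 270 against 267 TPM in animal 1 and 288 against 290 TPM in animal 2.

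Levels were not equal over the canonical members, although each protein but the acidic stalk pair is used once per ribosome. Between the 10th and the 90th percentile they spanned 4.63-fold, and 61 of 77 lay within 2-fold of the median, with 4 above and 12 below. The highest was Rplp1, of the acidic stalk, at 536 and 655 TPM in animals 1 and 2. Rpl41, which encodes the shortest protein of the ribosome, had 519 and 639 TPM. Rps29, a zinc-binding protein of the small subunit's head, had 478 and 595 TPM. Rps27, at 390 and 457 TPM, and Rps24, at 336 and 374 TPM, were also among the 6 highest. In each of these the value of animal 2 was the higher one, as it was in 76 of the 77 canonical members.

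At the low end stood Rpl5, which carries the smallest ribosomal RNA into the large subunit, with 12.4 and 12.9 TPM. Rpl27 had 14.6 and 16.8 TPM, and Rpl12, at the base of the stalk, 22.0 and 26.7 TPM. Rpl36a had 34.0 and 41.9 TPM, Rpl27a 36.5 and 44.8 TPM, and Rpl21 43.5 and 52.1 TPM. All 6 are proteins of the large subunit. The order hardly changed between animals (Spearman 0.99 over 77 members that share each library, a description), and the highest member lay 47.2-fold above the lowest. The means of Rplp1 (595 ± 84.3 TPM, SD, n = 2), Rpl41 (579 ± 85.1) and Rps29 (536 ± 82.9) lay within each other's SDs, which include the higher TPM of animal 2 as a whole. Within each animal the order of these 3 was the same.

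**Figure D1:**
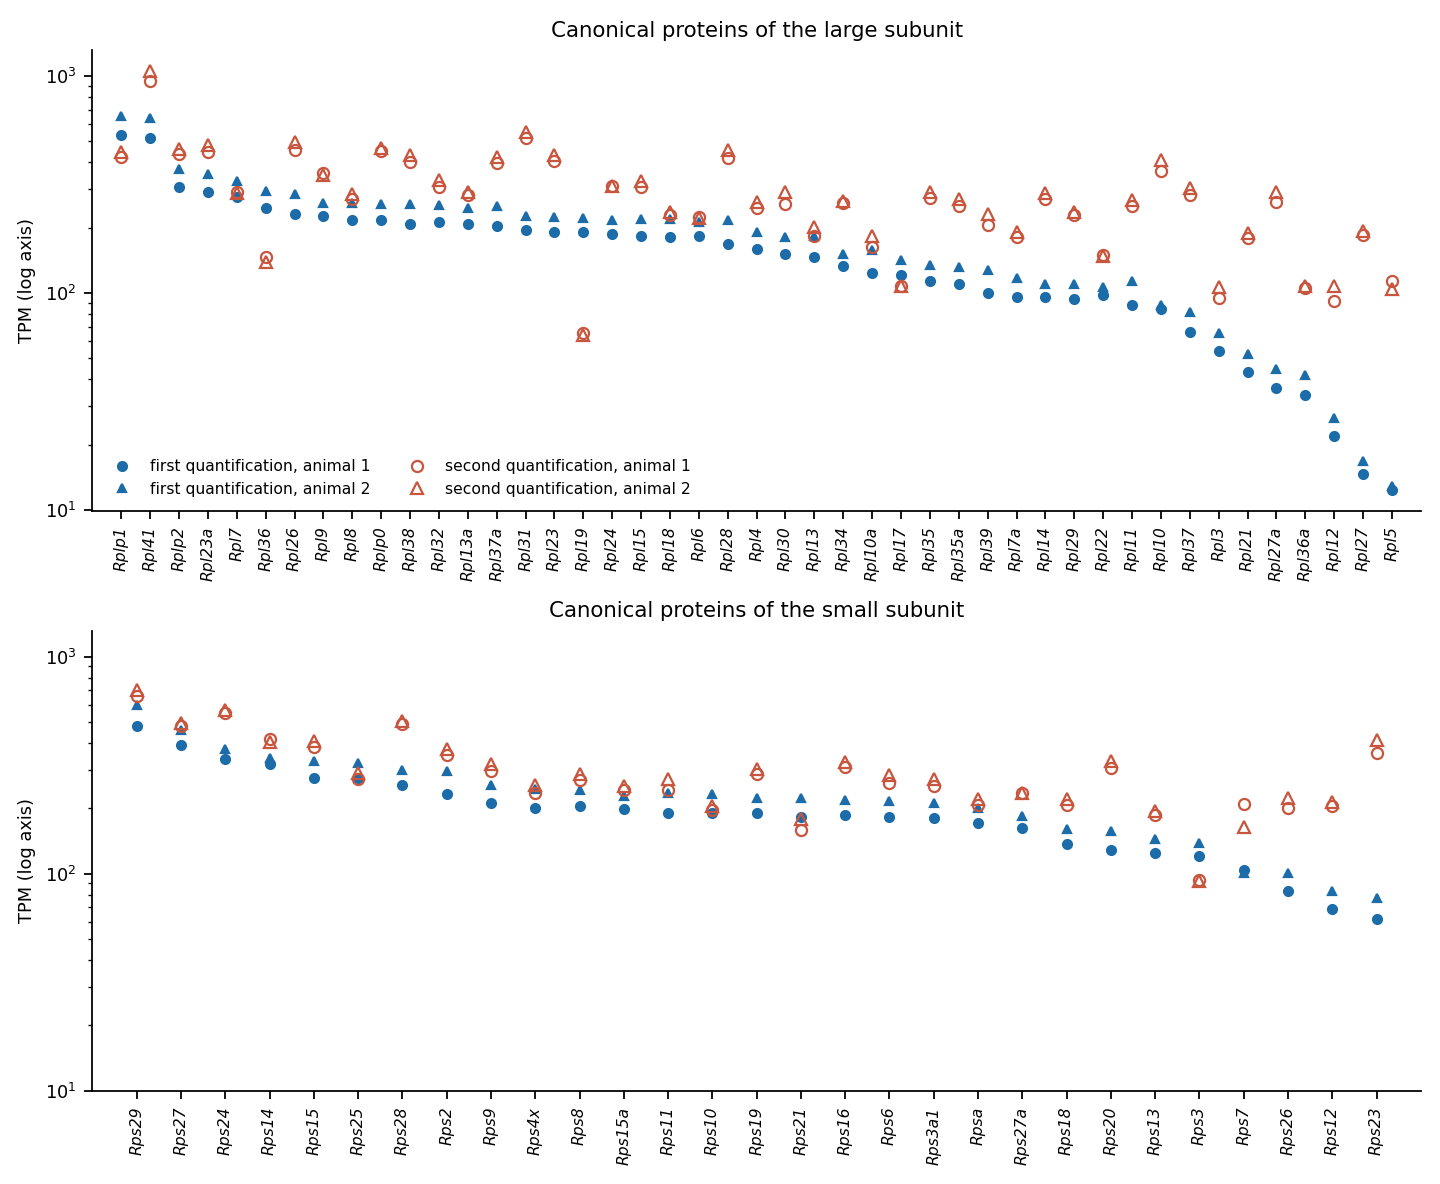
TPM of 74 of the canonical ribosomal protein genes on a log axis, large subunit above and small subunit below, ordered by the mean of the first quantification. Filled symbols are the first and open symbols the second quantification, circles animal 1 and triangles animal 2. The members at the right end (Rpl27, Rpl5, Rps23) rise by more than 5-fold in the second quantification, while Rpl19 and Rpl36 fall.

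The second quantification gave a narrower family and another order at the low end. Its 90th percentile lay 3.20-fold above its 10th, the highest member 15.5-fold above the lowest, and 67 of 77 members within 2-fold of the median of 279 TPM. The SD of log2 TPM over canonical members was 1.05 in the first and 0.71 in the second. Rpl41 (950 and 1054 TPM) and Rps29 (659 and 702 TPM) were again near the top, and the 6 highest also held Rps24 (550 and 568 TPM), Rpl31 (521 and 550 TPM) and Rps28 (487 and 503 TPM). Rplp1 dropped to the 14th place, with 422 and 447 TPM. The lowest were Rpl19 (65.2 and 64.3 TPM), Rps3 (93.8 and 92.8 TPM), Rpl12 (92.2 and 108 TPM), Rpl3 (94.4 and 107 TPM), Rpl36a (105 and 108 TPM) and Rpl17 (108 and 107 TPM). Rpl12 and Rpl36a were thus among the 6 lowest in both. Across the 77 members the order of levels in the 2 quantifications had a Spearman correlation of 0.68, a description over genes of the same libraries.

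The largest rises from the first to the second quantification were those of Rpl27, from a mean of 15.7 to 189 TPM (log2 3.59), and Rpl5, from 12.6 to 109 TPM (3.11). Rpl27a rose from 40.7 to 278 TPM (2.77), Rps23, which lines the decoding centre, from 69.4 to 385 TPM (2.47), and Rpl10, which joins late near the catalytic site, from 86.1 to 388 TPM (2.17). The largest drops were those of Rpl19 from 207 to 64.7 TPM (-1.68), Rpl36 from 271 to 143 TPM (-0.92), Rps3 from 129 to 93.3 TPM (-0.47), Rplp1 (-0.45) and Rpl17 (-0.29). The median canonical member was 0.55 higher on this log2 scale in the second quantification, against 0.26 for nuclear protein-coding genes with at least 1 TPM. The SD of that difference was 0.82 over canonical members and 0.58 over those genes.

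The reads of near-identical copies were counted in both quantifications. A copy was counted where another gene's transcript matched the member's main protein-coding transcript at 95% identity or more over at least 100 bases and over at least 50% of its own length. By this measure 76 of 77 canonical members had a copy, with a median of 6 and up to 61 for Rpl21, and 608 of the 620 distinct copies were annotated pseudogenes. The copies held 20.97% and 21.21% of the reads of the canonical members and their copies together in the first quantification, and 10.6% and 10.7% in the second. A member's own share of these reads had a median of 88.9% in the first and 99.7% in the second. It was under 50% for 14 members in the first and for 2 in the second.

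Rpl27 had 297 and 309 reads of its own, while its copies had 1943 and 2080, of which Gm11518, shown above, held 970 and 1040. In the second quantification Rpl27 had 2291 and 2447 reads and its copies 1.34 and 0. Rps23 had 1033 and 1090 reads against 2853 and 3165 for Rps23-ps1, and the second quantification gave Rps23 4130 and 4512 reads and Rps23-ps1 none. Rpl5 had 726 and 727 reads against 5966 and 6232 for Gm15500, a pseudogene that is annotated as transcribed. In the second quantification Gm15500 still held 4354 and 4800 reads and Rpl5 2390 and 2261. Of these families only that of Rpl5 therefore left most reads with a copy in both estimates.

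Over canonical members, 10 had more than 2-fold more own reads in the second quantification: Rpl27, Rps23, Rpl5, Rpl10, Rpl21, Rpl36a, Rpl28, Rpl27a, Rpl12 and Rpl37. Their log2 changes ran from 1.04 to 2.97. With the reads of the copies added on both sides, the same 10 changed by -0.08 to 0.11. Own reads agreed within 1.2-fold between the quantifications for 44 of 77 members, and reads of member plus copies for 60 of 77. The first quantification's posterior SD, called the assignment spread here, does not show this: it was 1.83% to 8.36% of the reads for those 10 members. The 5 largest assignment spreads over canonical members were those of Rps12 (10.8%), Rpl27 (8.36%), Rpl10 (7.75%), Rpl36a (6.36%) and Rpl5 (4.10%). With the copies' reads added, per base of each member's main transcript, the SD of log2 level over the canonical members fell from 1.06 to 0.63.

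Another 5 members had more than 2-fold fewer reads in the second quantification. They were Rpl36 (log2 -2.45), Rpl19 (-2.31), Rps21 (-1.74), Rplp1 (-1.60) and Rps29 (-1.16), and with copies added they still changed by -2.07 to -0.73. Apart from Rpl19, they are 4 of the 5 canonical members whose longest annotated transcript is under 500 bases. The second quantification subtracts 326 or 327 bases to get the effective length of long transcripts, and the first 99; the part of this in the drops was not tested. The fifth short member, Rpl38, had a family change of -0.11. In members whose longest transcript was at least 800 but under 1500 bases the family change had a median of 0.03. For Rpl19 the copy Rpl19-ps11 went the other way, from 218 and 243 to 1977 and 2110 reads. Only 5 canonical members shared no window of 100 bases with another gene's transcript. Among them, Rps3, Rpl22 and Rpl32 changed by -0.22 to 0.06, while Rps21, with its short transcripts, fell by the amount above.

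**Figure D2:**
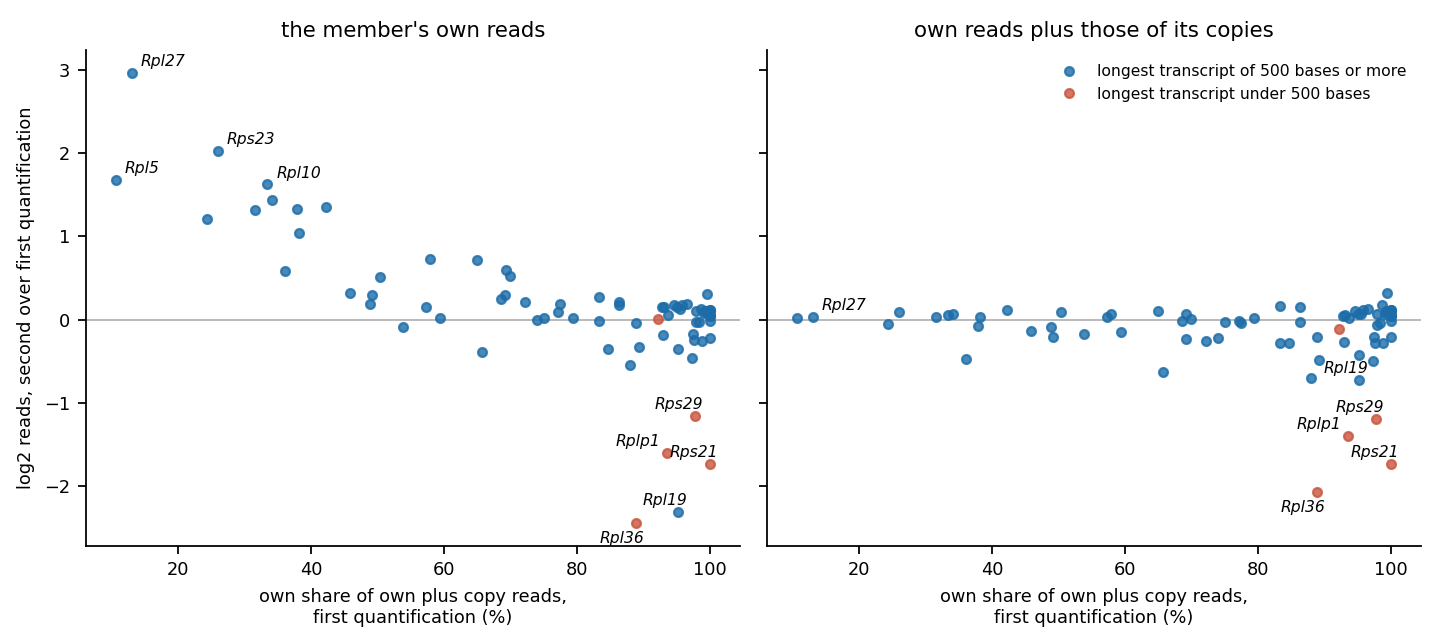
Log2 ratio of reads in the second over the first quantification for 77 canonical members, both animals summed, against each member's own share (%) of the reads of member plus copies in the first quantification. On the left own reads are compared, and on the right own plus copy reads; red points are the members whose longest transcript is under 500 bases. The points at the left of the first panel rise to 2.97 and return to near 0 in the second, while the red points other than Rpl38 stay below -1.

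Own share and change in own reads were inversely related over 77 members (Pearson -0.69, Spearman -0.58). Own reads of the first quantification enter both measures, so this is a description. The share of 100-base windows that a member has in common with another gene had a correlation of 0.17 with the same change. The 2 correlations are not comparable, since only the first shares reads between its measures.

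Rpl3l, the muscle paralog of Rpl3, was the more abundant of the pair. Rpl3l had 150 and 170 TPM (6912 and 7191 reads), and Rpl3 had 53.9 and 65.8 TPM (1910 and 2031 reads). The TPM ratio was 2.78 in animal 1 and 2.58 in animal 2, or 2.68 ± 0.139 (SD, n = 2). In the second quantification Rpl3l had 220 and 237 TPM, and the ratio was 2.33 and 2.22. Rpl3l shared no 100-base window with any other gene and had no copy, and its own reads changed by a log2 of -0.08 between the quantifications. Rpl3 had 79.4% of its windows in common with other genes, and Rpl3-ps1, shown above with its 2 differences, held 1421 and 1515 reads. If all reads of the copies are given to Rpl3, the ratio of reads per base of the main transcripts was 2.04 and 1.99, against 3.56 and 3.48 without them. Rpl3l thus exceeded Rpl3 in both animals under each of these estimates. Rpl3l did not pass the test between animals, with a log2 ratio of -0.02 and reads within 0.95 to 1.02-fold (adjusted p = 0.72, two-sided exact binomial test of 2 libraries, Benjamini-Hochberg over all genes).

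Rpl3l is known from skeletal muscle as well. The fast skeletal markers Tnni2 (1.12 and 1.34 TPM), Tnnt3 (0.33 and 0.59 TPM), Myh1 (0.10 and 0.01 TPM) and Myh4 (0.04 and 0.02 TPM) were near 0. Ckm, which heart expresses too, had 1293 and 1531 TPM. The muscle form of another part of the translation machinery stood in the same relation to its general form: Eef1a2, the elongation factor of heart and skeletal muscle, had 523 and 631 TPM and Eef1a1 had 337 and 426 TPM.

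Of 15 paralogs with a canonical partner, 3 exceeded it in the first quantification (Rpl37rt, Rpl3l and Rpl36al) and only Rpl3l did in the second. Rpl37rt, annotated as a transcribed processed pseudogene, had 190 and 246 TPM against 66.3 and 82.0 for Rpl37, a ratio of 2.93 ± 0.0969. In the second quantification that ratio was 0.61 and 0.62. Rpl36al, a coding retrocopy of the X-linked Rpl36a, had 74.6 and 86.2 TPM and a ratio of 2.13 ± 0.0956, against 0.89 and 0.92 in the second. Its own level moved little between quantifications (80.4 and 96.2 TPM on average), while Rpl36a rose from 37.9 to 106 TPM. Rps12l1, a processed pseudogene wholly covered by shared windows, had 63.3 and 63.4 TPM, or 0.92 and 0.76 of Rps12, and was listed at 0 in the second quantification. Rps3a2 had 75.5 and 97.4 TPM, a ratio to Rps3a1 of 0.44 ± 0.0292, and 0.21 in the second.

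Rps27l, Rpl22l1 and Rpl7l1 are coding paralogs that stood below their partners in both quantifications. Rps27l, a p53 target related to Rps27, had 56.8 and 69.0 TPM, 0.15 ± 0.00376 of Rps27, and 0.19 in the second quantification. Rpl22l1, which can stand in for Rpl22, had 32.7 and 37.5 TPM and a ratio of 0.34 ± 0.0138, and 0.42 in the second. Rpl7l1, a factor of large-subunit assembly, had 21.1 and 23.8 TPM and a ratio of 0.074 ± 0.00274, and 0.078 in the second. The transcribed pseudogene Rps4l had 3.35 and 6.24 TPM, 0.017 and 0.025 of the X-linked Rps4x, and 0.018 and 0.024 in the second. Rps19bp1, without a partner, had 6.56 and 7.22 TPM.

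The sequences of Rps27 (chr3:90212522-90213651, minus strand), Rps27l (chr9:66946086-66949516, plus strand) and Rps27rt (chr9:114982366-114982739, minus strand) show both situations. Capitals mark the bases that differ between Rps27 and Rps27l.
Rps27: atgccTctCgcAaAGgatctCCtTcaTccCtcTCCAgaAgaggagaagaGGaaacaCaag
Rps27l: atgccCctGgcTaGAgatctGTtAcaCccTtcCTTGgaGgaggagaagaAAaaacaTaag
Rps27rt: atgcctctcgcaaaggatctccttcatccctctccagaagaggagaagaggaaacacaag
Rps27 and Rps27l were identical at 192 of 252 coding bases, and Rps27 and Rps27rt at all 252. Rps27rt had 9.39 and 6.28 TPM with an assignment spread of 34.7%, and was listed at 0 in the second quantification.

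Rpl10l and Rpl39l, known from the germ line, were at or near 0. Rpl10l had no read in either animal, which allows up to 3 reads (0.0717 and 0.0718 CPM of gene reads). Rpl39l had 0 and 1 read, and Rpl32l none. Rpl6l had 23.1 and 6.91 estimated reads and Rps3a3 11 and 21, both with assignment spreads above 20%.

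**Figure D3:**
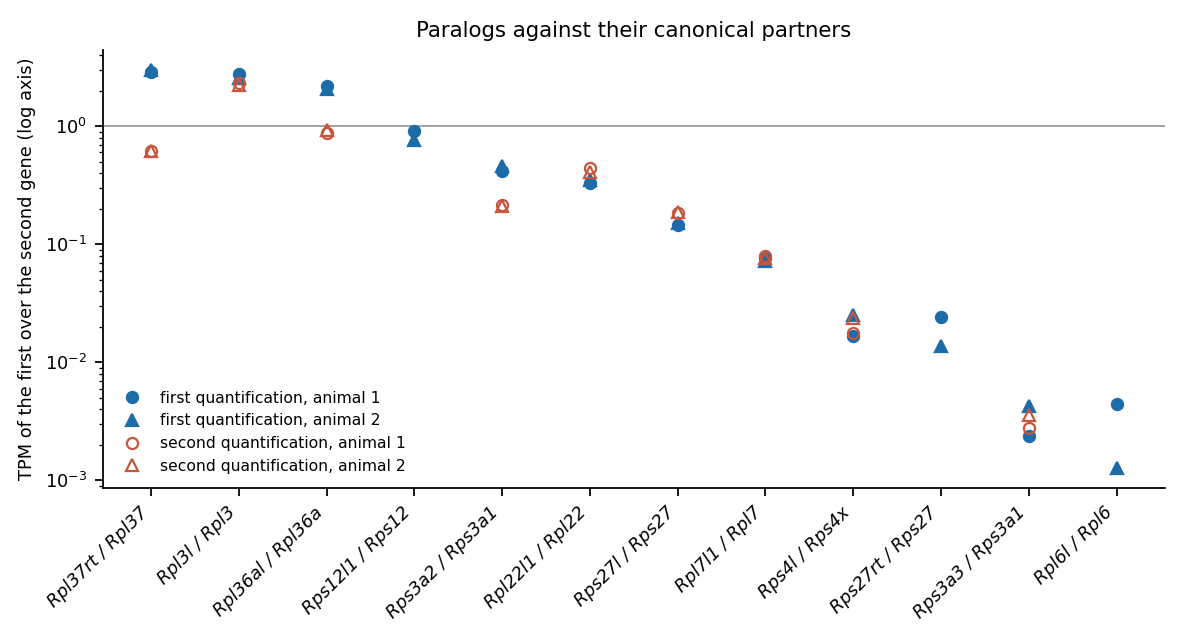
TPM of each paralog over that of its canonical partner, on a log axis, for the 12 pairs with reads in both animals; filled symbols are the first and open symbols the second quantification, circles animal 1 and triangles animal 2. Ratios of 0 in the second quantification are not drawn (Rps12l1, Rps27rt, Rpl6l). Rpl3l stays above 1 in all 4 values, while Rpl37rt and Rpl36al cross it.

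The 4 stalk proteins summed to 1084 and 1313 TPM. Rplp1 alone made up much of this, followed by Rplp2 (309 and 373 TPM), the scaffold Rplp0 (217 and 258 TPM) and Rpl12. In the second quantification Rplp0 (450 and 464 TPM), Rplp2 (435 and 463 TPM) and Rplp1 stood at about the same level. Of the pair that binds the smallest ribosomal RNA and restrains Mdm2 when assembly fails, Rpl11 had 88.5 and 114 TPM, far above Rpl5, and 252 and 267 TPM in the second quantification. Among the X-linked members Rps4x had 201 and 246 TPM, Rpl39, of the exit tunnel, 100 and 127 TPM, Rpl10 84.2 and 88 TPM, and Rpl36a the values above. Rps27a, made as a fusion with ubiquitin, had 161 and 184 TPM.

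Around the rim of the exit tunnel 8 members summed to 1341 and 1596 TPM. The highest were Rpl23a and Rpl26, the latter at 231 and 285 TPM, with Rpl31 at 195 and 226 TPM. For decoding and the messenger channel, 5 members summed to 902 and 1099 TPM, with Rps15 (276 and 329 TPM), Rps2 (233 and 297 TPM) and Rps9 (212 and 257 TPM) the highest. Deep in the large subunit, Rpl8 had 216 and 260 TPM and Rpl4 160 and 192 TPM. The 9 listed genes of Diamond-Blackfan anaemia, a failure of red cell formation from loss of 1 copy of a ribosomal protein gene, ran from Rpl5 to Rps24, with Rps19, the classic gene of the disease, at 190 and 222 TPM.

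The animals were compared gene by gene. Of 90 members with at least 20 reads, 1 passed an adjusted p of 0.05 with a 2-fold minimum (0 higher and 1 lower in animal 2), where 0.483% of all 16133 genes tested were higher and 0.893% lower. The 1 member was Rpl6l, with 23 and 7 reads (ratio 0.29, adjusted p = 0.029 by the exact binomial test). It was listed at 0 in the second quantification, its assignment spread reached 54.3%, and it was not among the genes tested where that spread had to be below 10%. No canonical member passed with that minimum. With no fold minimum 12 members passed, 7 higher and 5 lower in animal 2, against backgrounds of 6.60% higher and 4.75% lower. Both counts were near the share over all genes. Among genes with at least 2000 reads, 8 of 78 members (10.3%) and 978 of 4554 genes (21.5%) passed with no fold minimum.

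The canonical members' log2 ratios ran from -0.18 to 0.13 with a median of 0.03 and an SD of 0.0553. Over the 4554 genes with at least 2000 reads the median was 0.01 and the SD 0.146. By a robust SD, less moved by single genes, the spread was 0.0409 over canonical members and 0.0782 over those genes. At the top stood Rps2, of the messenger channel, with 7762 and 8955 reads (log2 0.13, adjusted p = 2.81e-07, exact binomial). Rpl28 (0.12), Rpl39 (0.11), Rpl10a (0.11) and Rpl13 (0.09) followed, of which Rpl10a and Rpl13 passed the same test with no fold minimum. At the other end were Rpl10, with 2203 and 2050 reads (-0.18, adjusted p = 0.00083, exact binomial), Rps7 (-0.11), Rpl22 (-0.10), Rps14 (-0.10) and Rpl5 (-0.07), of which Rpl10 and Rps14 passed. Rpl10's copy Rpl10-ps3 moved the opposite way, with 3753 and 4685 reads, and in the second quantification Rpl10 had 6147 and 6969 reads. Also called with no fold minimum were Rpl41 and Rps29, higher in animal 2, and among the paralogs Rps4l (105 and 170 reads) and Rps3a2, higher, with Rps27rt (96 and 58 reads) and Rps12l1, lower.

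These small differences turned on the scaling of the libraries. With total gene reads as the size, 47 of 90 members passed with no fold minimum (45 higher and 2 lower in animal 2). So did 3370 of all 16133 genes, and the median over all genes itself moved from -0.0024 to 0.08. With spike-in reads 19 members and 2022 of the 16133 genes passed. In both settings the share of members was above that over all genes. However, 78 of the members have at least 2000 reads, and genes that deep passed more often. With TMM scaling 10.3% of those members and 21.5% of all genes that deep passed. No share over such genes was computed for the other 2 settings, so the excess cannot be read as particular to the members. Markers of other cell types also moved, by TMM-scaled reads and with no fold minimum. All 4 fibroblast markers (median log2 0.28) and 3 of 4 endothelial markers (0.14) were higher in animal 2, as were 2 of 4 macrophage markers (0.21). Over all genes tested 6.60% were higher and 4.75% lower by this rule. Of genes with at least 2000 reads 21.5% passed it in either direction. Of 6 cardiomyocyte markers 3 were lower (Nppa, log2 -0.44, Myh6, -0.08, and Tnnt2, -0.03) and 1, Actc1, higher (0.10). Of 6 erythroid markers 3 were higher (log2 0.03 to 0.12) and 1, Hbb-bs, lower (-0.04). Deep counts let such small ratios pass, as for Tnnt2 with 112781 and 116358 reads. The part of these markers in the members' differences was not tested.

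**Figure D4:**
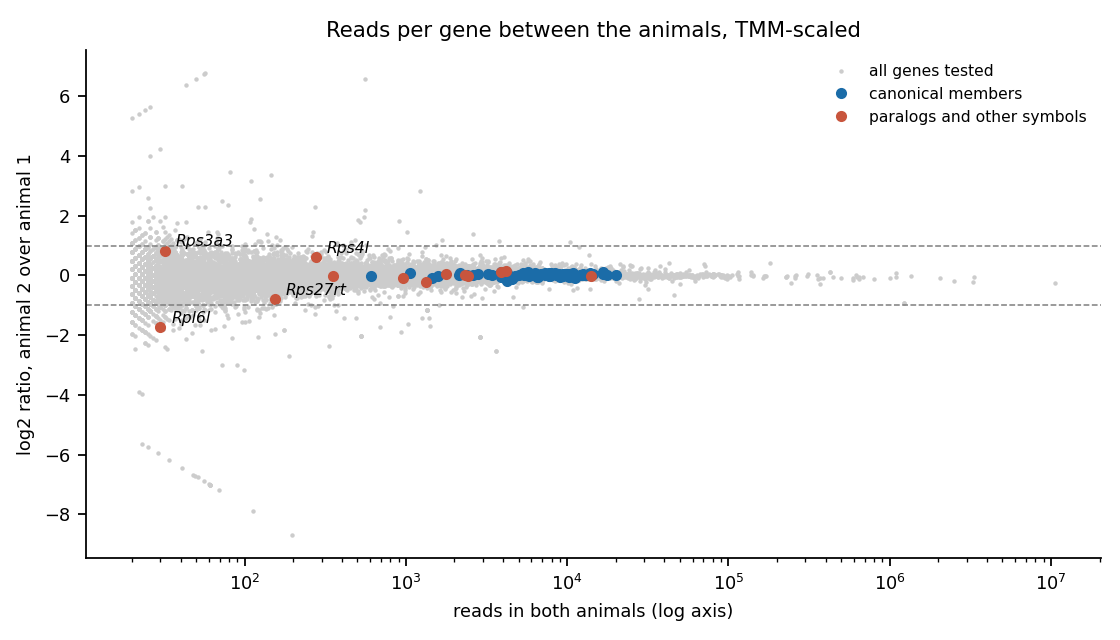
Log2 ratio of TMM-scaled reads in animal 2 over animal 1 against the reads of both animals on a log axis, for all genes tested (grey), canonical members (blue) and paralogs and other symbols (red); dashed lines mark 2-fold. Canonical members stay between -0.18 and 0.13, and Rpl6l, at 30 reads in both animals together, is the member beyond a dashed line.

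Genes that work with the ribosome were counted in the same way, against the same backgrounds of 6.60% higher and 4.75% lower. Many of them have deep counts, and of all genes with at least 2000 reads 21.5% passed in either direction. Of 17 other messengers known for the same pyrimidine start, mostly translation factors, 4 were higher in animal 2 with no fold minimum (Eef1a1, Eef2, Pabpc1 and Hnrnpa1) and 2 lower (Naca and Eef1d). The highest of them were Tpt1 (1131 and 1301 TPM), Eef2 (372 and 452 TPM) and Eef1a1. Of 25 genes of ribosome assembly, 1 passed (Polr1a, a subunit of RNA polymerase I, log2 -0.14), and the highest were Npm1 (47.0 and 60 TPM), Ncl (36.6 and 42.2 TPM) and Eif6 (20.1 and 22.5 TPM). Their median level, 8.91 TPM, stood well below that of the ribosomal proteins. Of 14 genes that control this translation or sense ribosome stress, Eif4ebp2 was higher and Tsc2 lower, with Eif4e the most abundant at 60.7 and 75 TPM. No gene of these lists passed with the 2-fold minimum. Of ribosomal proteins outside the symbol rule, Fau, made as a fusion with a ubiquitin-like protein, had 195 and 242 TPM, and the scaffold Rack1 had 141 and 148 TPM; Rack1 was lower in animal 2 with no fold minimum (log2 -0.07).

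Within genes the first quantification mostly gave 1 transcript the reads. The most abundant transcript held a median of 85.2% of a canonical member's TPM, and at least 90% in 36 of 77. Among members with several annotated transcripts the median was 83.6%, against 65% for all protein-coding genes of that kind. Among the lowest shares were those of Rpl13a (36.1% and 27.4%), Rpl38 (44.6% and 43.2%), Rps24 (46.5% and 49.4%) and Rps10 (47.4% and 49.99%). Rpl13a hosts small nucleolar RNAs in its introns, and its main transcript, Rpl13a-203, is annotated as non-coding. Rps24 is known for alternative splicing near the end of its messenger. The share moved most between animals in Rps7, from 56.4% to 68.9%.

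The second quantification placed the same reads on other transcripts. The transcript that led in the first had a median share of 34.5% in the second, and the same transcript led in both for 34 of 77 members. In the others the second leader was longer in 33 and shorter in 10. Rpl38 went from Rpl38-202 (345 bases) to Rpl38-203 (457 bases, 100% in both animals), Rps10 from 498 to 887 bases and Rps24 from 468 to 714 bases. Protein-coding transcripts held 84.1% and 84.9% of the canonical members' TPM in the first and 68.5% and 68.6% in the second, while over all protein-coding genes they held 86.8% and 87.3% in the first and 83.7% and 84.1% in the second. Transcripts annotated as retaining an intron rose from 7.22% and 7.07% to 17.4% in both animals. Shares of retained introns in this family therefore depended on the quantification.

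**Figure D5:**
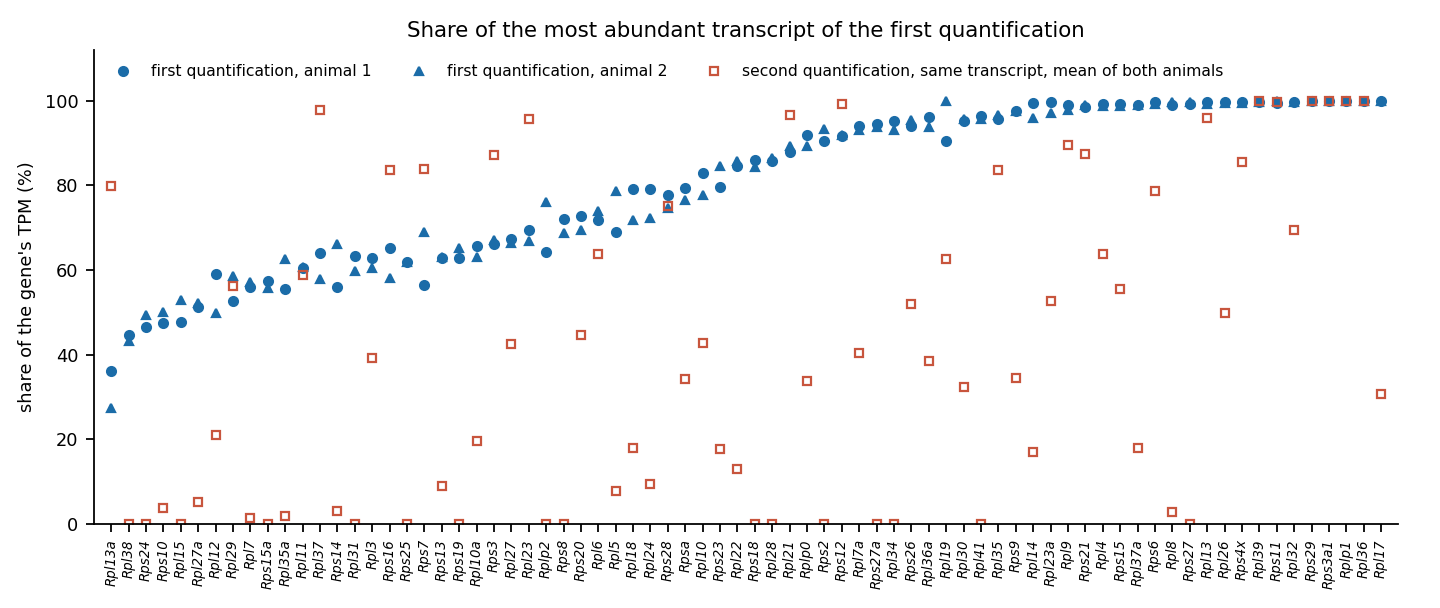
Share (%) of the TPM of 74 canonical members held by the most abundant transcript of each in the first quantification, ordered from low to high, for animal 1 (circles) and animal 2 (triangles); open squares give the mean share of the same transcript in the second quantification. Shares of both animals lie close together, while the squares scatter from 0 to 100%; the medians over all canonical members were 85.2% and 34.5%.

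The start sites were searched for the pyrimidine run. RefSeq starts (GRCm38.p6, the same assembly) were found for 57 canonical members, with 67 starts in all. A C at the start followed by 4 bases that are each C or T was present at 13 starts (19.4%), against 2.51% of all 32851 starts in the table. A start annotated 1 base away is not counted by this search. Examples are shown with 10 bases before the start and 20 from it, the pyrimidine run in capitals: Rpl15 (chr14:18270967-18270996, minus strand) with the longest run, Rps6 (chr4:86857348-86857377, minus strand), whose protein is the target of growth signalling in the small subunit, Rps27 (chr3:90213629-90213658, minus strand), and Rps21 (chr2:180257369-180257398, plus strand) with a short run.
Rpl15: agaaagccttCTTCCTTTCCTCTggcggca
Rps6: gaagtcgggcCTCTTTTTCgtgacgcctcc
Rps27: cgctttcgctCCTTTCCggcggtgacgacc
Rps21: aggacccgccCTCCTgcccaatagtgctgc

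In the 250 bases before to 50 after the start, on either strand, CCGGAAG, the core bound by ETS factors, was present at 37.3% of the canonical members' starts and 8.86% of all starts. AAGATGG, which YY1 binds, was present at 16.4% and 6.34%, and TATAAA at 8.96% and 13.6%. Some genes have several starts with overlapping windows. These letters describe the windows only.

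Within the bounds of 30 members, on the same strand, lie 58 annotated small nucleolar RNA genes, a class known to guide the modification of ribosomal RNA. The search also accepted the related small RNAs of Cajal bodies, and whether each gene lies in an intron was not checked. Only 6 reached 20 reads, and all 6 had a log2 ratio below 0, with a median of -1.15, while their 5 host genes had a median of 0.01. With the 2-fold minimum 3 of these 6 were lower in animal 2, among them Snora21 in Rpl23 (37 and 10 reads) and Gm26448 in Rpsa (254 and 116). Over all 16133 genes tested 0.893% were lower by that rule. None of the hosts of these 3 small RNAs passed with that minimum. Snord15b (401.5 and 413.5 reads, log2 -0.03) and Snord15a (74 and 57 reads, log2 -0.45), both in Rps3, were not called with it. Each small gene lies within its host, so its count is uncertain.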

How the data were processed

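Total RNA of heart tissue from 2 mice (1 library each) was analysed. The gene table and the first transcript table, whose columns are those of RSEM, give per the file headers estimated reads (expected counts, unscaled), TPM and FPKM; effective lengths are 99 bases shorter than the transcripts. Isoform shares in percent were deposited in the first transcript table and serve here as recomputed from TPM. A second transcript table, with kallisto's columns per the file headers, also has estimated counts and TPM. The deposited readme names mm10 and the M21 annotation, and no aligner, tool version or filter is given in the sources used here. Members were matched by symbol and identifier to GENCODE M21. Rows without a gene identifier held 4 and 2 reads and were left out.

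Levels are means and SDs of the deposited TPM. For ratios between animals, the deposited expected counts were rounded, genes with at least 20 reads were kept, libraries were scaled by TMM (edgeR 4.0.16, R 4.3.3), and each gene's pair of counts was tested with an exact, two-sided binomial test (scipy 1.17.1) with Benjamini-Hochberg adjustment over all genes; the log2 ratio used a prior count of 0.5. With 1 group no model with replicates could be fitted, so p-values measure the spread of counting between 2 libraries only. The test was checked on data simulated with counting error only, so that check does not cover variation between animals. Copies were found with BLAST 2.17.0. The members and lists were chosen with earlier results of these data known, and the pairs of Rpl6l, Rpl32l, Rpl37rt and Rps12l1 were added once the files' symbols were listed. Values are given by rule for the 6 highest and lowest canonical members in each quantification, all paralogs, the 5 largest differences in each direction, the 5 largest assignment spreads, the 5 lowest transcript shares, the small functional sets whole and the 3 highest of other lists. Values of a few genes that this rule names are not reported here. Reads carry no molecular identifiers, so limits cover counting error only.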

Additional observations from a re-analysis of the deposited data

How the results depend on the processing

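The second quantification moved most descriptions. It gave 2.41% of all TPM for the family in place of 1.62%, and 4.26% in place of 3.87% when set against nuclear protein-coding TPM. The first quantification gave 0.730% of reads, and 1.475% to 1.757% of all TPM leaving out 1 animal. The second quantification gave 2.27 for Rpl3l over Rpl3 in place of 2.68 (2.58 to 2.78 leaving out 1 animal). It also gave 1 paralog above its partner in place of 3, an SD of log2 TPM of 0.71 in place of 1.05, and 34.5% for the leading transcript in place of 85.2%. Reads over annotated length gave an SD of 1.01, and leaving out 1 animal 1.04 to 1.05. Chosen after seeing the data, reads per base of the main transcript gave 1.06 for that SD. With the reads of copies added, also chosen afterwards, the SD was 0.63 and Rpl3l over Rpl3 was 2.01. The planned setting of reads per base without the copies gave 3.52 for Rpl3l over Rpl3. Members called at 2-fold numbered 0 in the second quantification and with assignment spread below 10%, and 1 otherwise. In those 2 settings 9 of 87 and 9 of 85 members passed with no fold minimum. Over all genes 1912 of 17213 and 1636 of 15419 did. With no fold minimum 12 members became 47 with total gene reads, where their median log2 ratio was 0.10 in place of 0.02, and 19 with spike-in reads. Over all 16133 genes tested, 1831 became 3370 and 2022 in these settings. No paired analysis was possible because there is 1 group. Depth limits the copies and lowest paralogs: genes below 20 reads were tested only in the setting without that minimum. There 10 of 91 members and 1700 of 25056 genes passed with no fold minimum.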
